A study of Mus musculus with 4 samples.

Results

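The fat-liver gap of a gene is its level in white adipose tissue (WAT) minus its level in liver, on the log2 scale, and the change of that gap is the gap in mice labelled Pnpla7-/- minus the gap in wild-type mice. A positive change means that the gene moved toward WAT, and a negative change that it moved toward liver. The members were the genes with at least 1 probe, other than controls, that was well above background on all 4 arrays of the series, which gave 14888 genes of the 22327 genes on the array. All 4 samples entered. They were liver of wild-type mice, liver of mice labelled Pnpla7-/-, WAT of wild-type mice and WAT of mice labelled Pnpla7-/-, and all animals were C57BL/6N and 4 weeks old. Each group was a single one-colour Agilent array hybridised with RNA that had been pooled in equal amounts from 5 animals, and no treatment is named. The sources used here do not give the kind of deletion, the fat depot or the sex of the animals. The extraction protocol names livers as the RNA source for all 4 samples.

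Liver secretes plasma proteins and lipoproteins, makes bile acids and burns fatty acids to ketone bodies. White fat stores triglyceride in large lipid droplets, secretes hormones such as leptin and adiponectin, and can take on thermogenic genes when cold or adrenergic signals reach it. PNPLA7, a phospholipase of the patatin-like family, cleaves lysophosphatidylcholine and so helps to release the choline carrier glycerophosphocholine, a source of methyl groups for the methionine cycle through betaine. The comparison asks which genes differ between fat and liver by another amount when Pnpla7 is disrupted.

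A level is the log2 of the processed signal over the 75th percentile of its array, so 0 is the 75th percentile. With 1 pooled array a group there was no replicate check, no test was made, and precision is limited by the number of arrays. The error model of the scanner software gave a median error of 0.29 for the change of the gap, and different probes of a gene differed by a pooled SD of 0.28 (4249 genes with several probes). These errors cover spots and probes and leave out the spread between animals. A gene was counted as moved when its gap changed by at least 2-fold, that is by at least 1 on the log2 scale. Between 65.5% and 72.6% of spots were well above background on the 4 arrays, and 0 were saturated. The labels of tissue were borne out by summed levels, as 29 hepatocyte markers summed to 4147 and 3489.6 times the 75th percentile in wild-type and labelled-knockout liver against 298 and 357 in WAT. The 30 adipocyte markers summed to 335 and 234 in liver, against 1824 and 2035 in WAT.

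The gene named in the genotype was measured by 1 probe. Pnpla7 read 3.18 in wild-type liver, 3.0 in labelled-knockout liver, -0.44 in wild-type WAT and -1.43 in labelled-knockout WAT. It stood well above background on both labelled-knockout arrays, and the liver difference was -0.18. Its gap went from -3.61 to -4.42, a change of -0.81 with a model error of 0.29. The probe lies at chr2:24908961-24909192 on the mm9 build, and a probe outside the deleted part checks nothing, so the labels are given here as labels. The related phospholipases Pnpla6 and Pnpla8 had changes of -0.18 and 0.60 (1.01 for Pnpla8 with the normexp background correction at offset 0).

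Most genes kept their fat-liver gap within 2-fold. The gap of 523 of 14888 genes moved toward WAT (3.51%) and that of 688 moved toward liver (4.62%), and the median change over all genes was 0.05. This split depended on the background correction. With normexp, which models the background of the raw spot signal, 919 genes moved toward WAT and 270 toward liver at offset 50, and 1810 and 320 at offset 0, and the median change was 0.23 and 0.25. The share of moved genes that went toward WAT was 43.2% by the processed signal, 77.3% and 85.0% with normexp, and 35.1% when the 75th percentile was taken over measured probes only. Just inside the limit stood Acadvl (1.00014) and just outside it Bckdha (0.999973), and 242 genes lay within 0.1 above the limit and 302 within 0.1 below. Among the 215 moved genes with several probes, 212 had probes of 1 sign and 141 had every probe past 2-fold.

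By the processed signal, genes that a tissue preferred narrowed their gap more often than they widened it. Of 2743 genes with a wild-type gap of 2-fold or more in favour of WAT (WAT-preferring), 354 narrowed, closed or turned (12.9%) and 70 widened (2.55%). Narrowed means that the gap shrank and stayed above 2-fold (170 genes), closed that it ended within 2-fold (174), and turned that it ended at least 2-fold on the other side (10). Of 2214 liver-preferring genes, 252 narrowed, closed or turned (145, 100 and 7, together 11.4%) and 92 widened (4.16%). The excess among WAT-preferring genes was smaller with normexp, where 128 narrowed, closed or turned and 85 widened at offset 50, and 138 and 126 did so at offset 0. Among liver-preferring genes 232 narrowed, closed or turned and 43 widened at offset 50, and 756 and 71 at offset 0. The wild-type gap enters both the sorting and the change, which favours narrowing by construction. Sorted by the mean gap of both genotypes, 249 WAT-preferring genes moved toward liver and 121 toward WAT, and 191 liver-preferring genes moved toward WAT and 135 toward liver. Of 9931 genes level in wild type (a gap under 2-fold), 119 opened to WAT, 130 opened to liver and 194 moved without reaching a 2-fold gap.

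**Figure D1:**
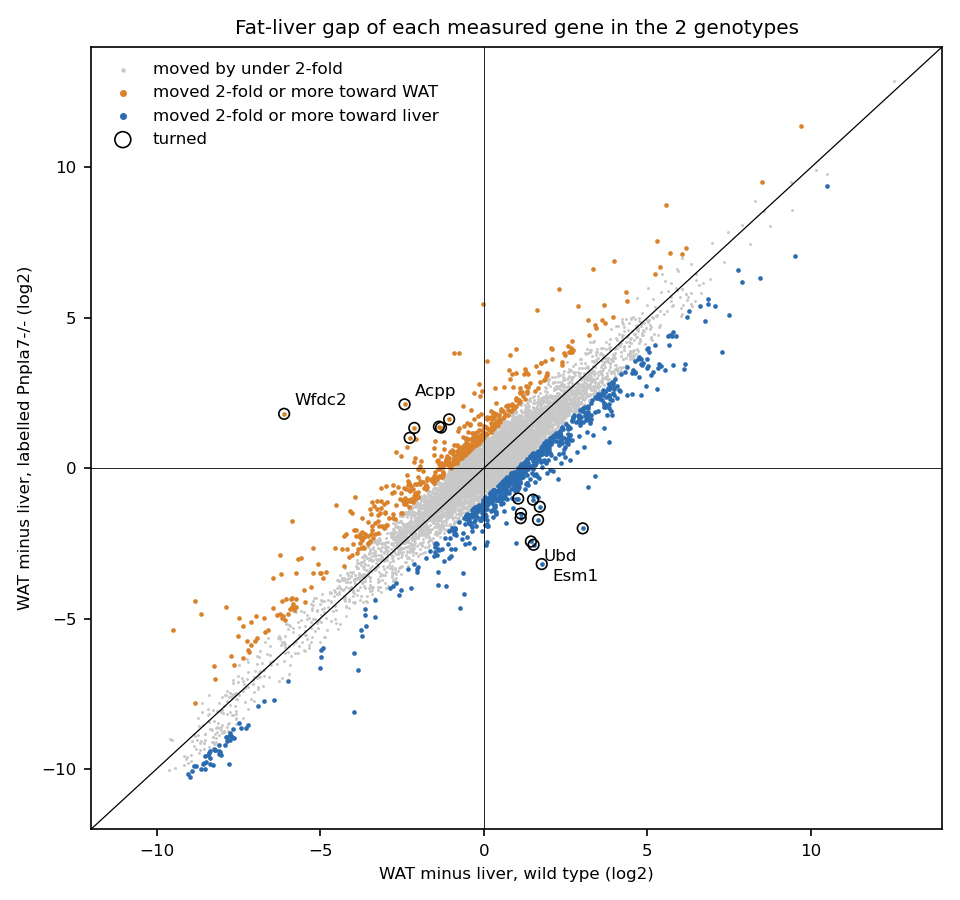
Each point is 1 of 14888 measured genes, with its WAT minus liver difference in wild-type mice on the x axis and in mice labelled Pnpla7-/- on the y axis, both in log2. Points above the diagonal moved toward WAT and points below it toward liver. The 10 and 7 circled genes turned, and Wfdc2 stands farthest from the diagonal, with a gap of -6.10 in wild type and 1.81 in the labelled knockout.

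The change of the gap is the WAT difference between genotypes minus the liver difference, so either tissue can carry it. Toward WAT, the WAT difference was the larger part in 393 of 523 genes (75.1%), and 219 genes passed 2-fold in WAT alone against 48 in liver alone. Toward liver the parts were even, with WAT larger in 351 of 688 genes (51.0%), 154 past 2-fold in WAT alone and 201 in liver alone. In 245 genes toward WAT (46.8%) and 318 toward liver (46.2%) neither tissue reached 2-fold and the change was the sum of smaller opposite differences. The liver-preferring genes that widened were one-sided, as 63 of 92 passed 2-fold in WAT alone, with a median WAT difference of -1.33 and a median liver difference of -0.15. The level genes that moved toward liver were the reverse, with 103 of 242 past 2-fold in liver alone and 27 in WAT alone.

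**Figure D2:**
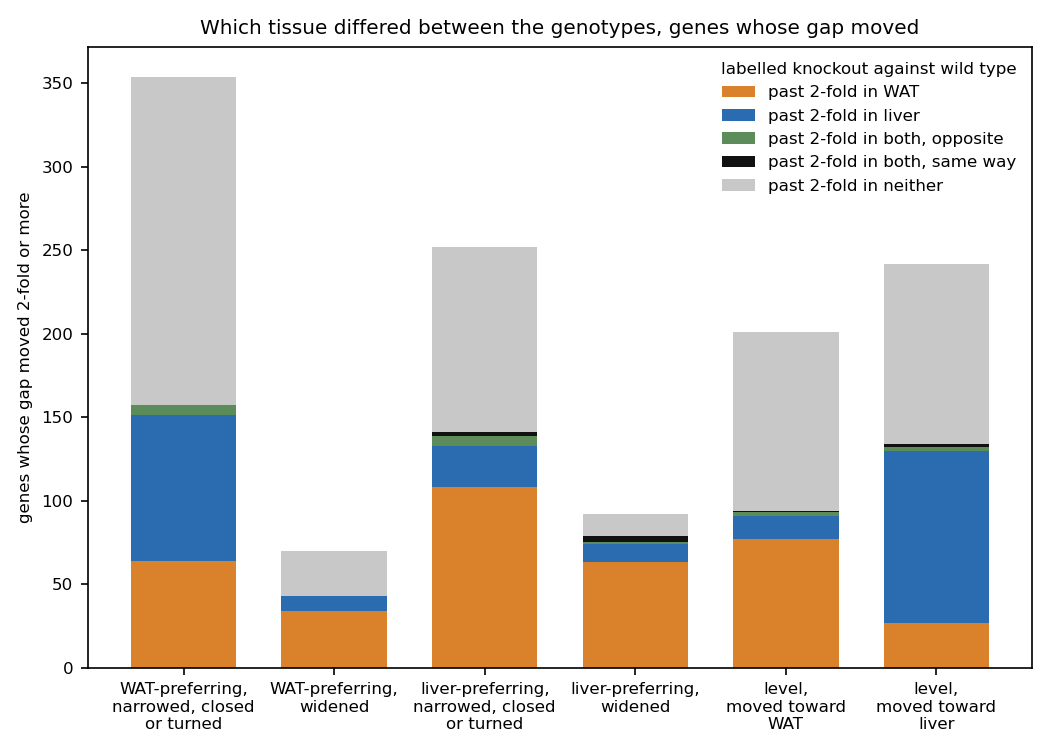
Bars count the genes whose gap moved at least 2-fold, by wild-type preference and direction, and colours say in which tissue the labelled knockout differed 2-fold from wild type. Of 92 liver-preferring genes that widened, 63 differed in WAT alone, and of 242 level genes that moved toward liver, 103 differed in liver alone.

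A turn from fat in wild-type mice to liver in the labelled knockout was seen in 10 genes, and in most of those named here it came with a higher level in liver. Esm1, an endothelial proteoglycan, read -1.93 in wild-type liver, 0.18 in labelled-knockout liver, -0.16 in wild-type WAT and -3.01 in labelled-knockout WAT. It is the turned gene of this direction in which both tissues passed 2-fold, liver upward and WAT downward, and its gap changed by -4.96. Ubd, a ubiquitin-like modifier, read -4.23 and 0.22 in liver and -2.71 and -2.33 in WAT, in the order wild type and labelled knockout as in what follows, a change of -4.07 that lay in liver. Tceal5 changed by -3.88, with liver at -3.49 and -0.58 and WAT at -2.05 and -3.02.

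Other genes of this kind include a redox enzyme, a macrophage receptor and a stress transcription factor. Cbr3, a carbonyl reductase regulated by NRF2, read -1.28 and 2.16 in liver and 0.37 and 0.44 in WAT, so its WAT level hardly differed while its gap went from 1.66 to -1.72. Trem2, a lipid-sensing receptor of macrophages, read -3.20 and -0.75 in liver and -1.49 and -2.04 in WAT, a change of -2.99. Atf3, an immediate stress response factor, read -2.70 and -0.57 in liver and -1.57 and -2.23 in WAT, a change of -2.79. In Spon2, a matrix protein, WAT passed 2-fold and liver did not, with liver at -0.86 and 0.07, WAT at 0.27 and -1.44 and a change of -2.64. With normexp 5 WAT-preferring genes turned in place of 10. The change of each of the 7 genes from Esm1 to Spon2 stayed past 2-fold under every normalization and background correction tried. Each of the 7 had 1 measured probe, so the choice of probe could not alter its change. Osbpl3 and Fbln7, which also turned this way, had changes of -2.55 and -2.06, and Fbln7, like Spon2, passed 2-fold in WAT alone.

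The reverse turn, from liver to fat, was seen in 7 genes, and in each of them the WAT level was higher in the labelled knockout. Wfdc2, a protease inhibitor of secretory epithelia, read 0.58 and -0.46 in liver and -5.52 and 1.35 in WAT. Its WAT level was low in wild type and above the liver level in the labelled knockout, and its gap went from 68.8-fold in favour of liver to 3.50-fold in favour of WAT. The change of 7.91 is the mean of 2 probes that read 6.82 and 9.0, and it was the largest of all measured genes. Acpp, the prostatic acid phosphatase, read -3.04 and -5.49 in liver and -5.46 and -3.37 in WAT, so the tissues moved in opposite directions and the gap changed by 4.54. Without the filter on dim probes its change was 1.93. Neb, which encodes the giant sarcomere protein nebulin, read -2.50 and -3.07 in liver and -4.62 and -1.73 in WAT, a change of 3.46.

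Lingo4, Acot5, Asb16 and Zmynd12 had changes of 3.27, 2.75, 2.68 and 2.66. Acot5 is a peroxisomal acyl-CoA thioesterase, and its sequence is so close to those of its neighbours in the Acot cluster that signal may be shared between them. It read -1.92 and -2.17 in liver and -3.30 and -0.79 in WAT, so liver hardly differed. Asb16, Acpp and Zmynd12 were dim, with model errors of 0.49, 0.40 and 0.40. A stricter filter left out the dimmest genes (those below the 25th percentile of each gene's lowest level). It removed these and also Wfdc2 (model error 0.36), Neb and Lingo4, so that 1 liver-preferring gene, Acot5, turned.

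**Figure D3:**
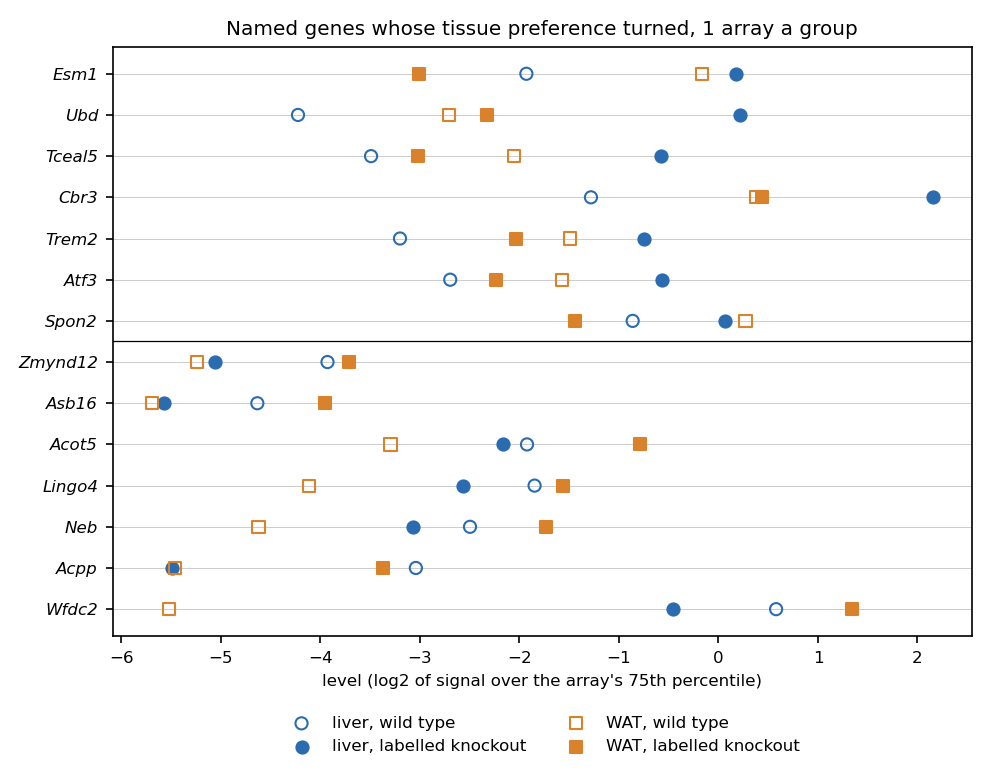
Levels of named genes that turned, on the x axis in log2 of signal over the array's 75th percentile, with 1 array for each marker. Above the line, filled circles (labelled-knockout liver) lie right of filled squares (labelled-knockout WAT), while open squares (wild-type WAT) lie right of open circles. Below the line the order is reversed.

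Among WAT-preferring genes that narrowed or closed, a tissue inhibitor of metalloproteases, a serine synthesis enzyme and several adipocyte genes led. Timp1 read -3.81 and -2.03 in liver and -0.62 and -2.65 in WAT, higher in liver and lower in WAT, so that a gap of 9.12-fold closed to 1.53-fold toward liver (change -3.80). Phgdh, the first enzyme of serine synthesis, read -3.81 and -1.23 in liver and 3.47 and 2.61 in WAT. Its gap narrowed from 155-fold to 14.4-fold, and its 2 probes read -3.36 and -3.49. The probe with the smaller change, at chr3:98117215-98117274 on mm9, minus strand, is shown with the probe of Sult1d1, a liver-preferring gene that narrowed (chr5:87985008-87985067, minus strand). The signal of a probe rests on what so short a stretch binds, and Phgdh had 2 measured probes while Sult1d1 had 1. The sequences are those in the array annotation.

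Phgdh: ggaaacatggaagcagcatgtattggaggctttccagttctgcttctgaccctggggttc
Sult1d1: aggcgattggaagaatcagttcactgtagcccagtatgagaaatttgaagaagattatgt

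The adipocyte list as a whole had a median change near 0. Of 23 measured markers 1 moved toward WAT and 6 toward liver, against 3.51% and 4.62% of all genes, and their median change was -0.04, which turned to 0.17 and 0.18 with normexp and to 0.09 under the stricter filter on dim genes. Npr3, the clearance receptor for natriuretic peptides, read 2.70 in wild-type WAT and -0.22 in labelled-knockout WAT and about the same in both livers (-3.42 and -3.52), a change of -2.82. Sncg, a synuclein abundant in adipocytes, and Nnat, an imprinted proteolipid, narrowed in the same manner by -2.48 and -2.37, with WAT differences of -2.69 and -2.33. Cidec, which fuses lipid droplets, narrowed from the liver side, with liver at -2.80 and -0.34 and WAT at 5.63 and 5.99 (change -2.10). Lpl and Mest were the other 2 that moved toward liver (-1.20 and -1.17), and Car3, a carbonic anhydrase, moved toward WAT by 1.35 with a liver difference of -1.24.

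Among matrix and myeloid genes, more members moved toward liver than toward WAT, although most stayed within 2-fold. The shares over all genes were 4.62% toward liver and 3.51% toward WAT. Of 28 measured fibroblast and matrix genes, 11 moved toward liver and 0 toward WAT, with a median change of -0.88 made of a WAT median of -0.63 and a liver median of 0.24, and 8 moved toward liver with normexp at either offset. Thbs1, a matricellular thrombospondin, changed by -2.21, Fbn1, the core of elastic microfibrils, by -1.53, and Col6a2 by -1.72, which became -0.77 with normexp at offset 50. Of 24 measured macrophage and myeloid markers, 11 moved toward liver and 2 toward WAT, with a median change of -0.92 (WAT -0.62, liver 0.17). With normexp 5 and 7 of them moved toward liver at offsets 50 and 0, and the median was -0.68 and -0.73. Itgax, the integrin CD11c, and Ccr2, the monocyte chemokine receptor, changed by -1.56 and -1.51, and both were within 2-fold with normexp (-0.80 and -0.23 at offset 50). S100a9, a neutrophil calcium-binding protein, went the other way by 1.69, and its partner S100a8 by -1.39. The summed level of the 28 myeloid markers on the array was 127 and 140 in liver and 240 and 265 in WAT. In bulk samples such as these, fewer cells of a type and less RNA per cell cannot be told apart.

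The WAT-preferring genes that widened included fast skeletal muscle troponins. Tnni2, the inhibitory subunit, read -3.73 and -2.88 in liver and -0.40 and 3.75 in WAT (change 3.30), and Tnnc2, the calcium-binding subunit, read -5.54 and -4.99 in liver and 0.02 and 3.75 in WAT (change 3.18). The wild-type fat array was thus already well above liver for both, and the labelled-knockout fat array was higher still. Ccn5, a secreted matricellular protein, widened by 2.91, with WAT at -0.93 and 1.32 and liver at -4.90 and -5.56. Me1, malic enzyme, which supplies NADPH for lipogenesis, widened by 1.88 with most of the change in liver (4.17 and 3.07) and the lesser part in WAT (6.26 and 7.04). Slc13a4, a sulfate transporter, and Fndc5, the precursor of irisin, also widened through lower liver levels (2.24 and 1.81), and St3gal6 and Serpina3b through higher WAT levels (2.49 and 2.06).

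The liver-preferring genes that narrowed were led by an epithelial claudin, a sulfotransferase and acyl-CoA thioesterases, which were higher in fat. Of the 145 genes that narrowed, the WAT difference was the larger part in 105 (72.4%), and 63 passed 2-fold in WAT alone. Cldn3, a tight junction protein, read 3.74 and 3.92 in liver and -5.08 and -0.50 in WAT, so its gap fell from 452-fold to 21.4-fold in favour of liver (change 4.40). Sult1d1, whose probe is printed above, read 3.79 and 3.09 in liver and -5.72 and -2.27 in WAT (change 4.14, model error 0.40). It was dim in WAT, and its change was 3.14 without the filter on dim probes and 2.60 with normexp at offset 50. Cytosolic Acot1 read 3.67 and 3.46 in liver and -2.20 and 1.71 in WAT (change 4.11), and peroxisomal Acot3 and Acot4 changed by 3.34 and 2.29. All 3 thioesterases are targets of PPAR alpha, and as near-identical neighbours they may share probe signal, so the member is uncertain. Cyp2b10, a cytochrome P450 induced through CAR, narrowed from both sides, with liver at 6.02 and 4.60 and WAT at -2.62 and -0.25 (change 3.79). Mfsd2a, a transporter of lysophosphatidylcholine, read 4.40 and 4.21 in liver and -3.49 and -0.41 in WAT (change 3.26).

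Among genes of fatty acid oxidation and PPAR alpha, more moved toward WAT than toward liver, against 3.51% and 4.62% of all genes. Of 37 measured genes 13 moved toward WAT and 1 toward liver, with a median change of 0.86, a WAT median of 0.65 and a liver median of -0.19. With quantile normalization 8 moved toward WAT and 2 toward liver, and the median was 0.57. The lone gene toward liver was Fgf21, the fasting hormone. Ehhadh, the peroxisomal bifunctional enzyme, changed by 2.12, the acylcarnitine carrier Slc25a20 by 1.42 and the muscle-type carnitine palmitoyltransferase Cpt1b by 1.36. Cpt1a, the liver-type enzyme, and the fatty acid hydroxylase gene Cyp4a14 were within the limit at -0.87 and -0.83. All 38 measured genes of oxidative phosphorylation had a positive change, from 0.42 for Atp5b to 1.1 for Atp5j, with a median of 0.72. With quantile normalization the median was 0.35, and 37 of the 38 were above 0. Atp5j alone passed 2-fold, and it was within 2-fold by the brighter of its 2 probes (0.45), with quantile normalization (0.99) and with normexp at offset 50 (0.91).

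The liver-preferring genes that widened fell into a few with more signal in liver and many with less in fat. Tff3, a trefoil peptide of mucous epithelia, read -1.47 and 2.72 in liver and -5.45 and -5.40 in WAT (change -4.14). Fgf21 read -1.18 and 1.76 in liver and -5.03 and -4.94 in WAT, widening from 14.4-fold to 104-fold. Apoa4, an apolipoprotein, likewise lay in liver, at 2.23 and 4.29, against -5.56 and -5.55 in WAT (change -2.05). From the fat side came Lbp, the lipopolysaccharide-binding protein, with WAT at 1.38 and -1.13 and liver at 2.79 and 2.74 (change -2.47). Slc6a13, a taurine and GABA transporter, and Ccnd1, cyclin D1, changed by -2.15 and -2.06 with WAT differences of -2.39 and -1.18. Akr1c18, a hydroxysteroid dehydrogenase, was higher in liver (-1.0 and 0.67) and lower in WAT (-2.15 and -3.26).

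Plasma protein genes made up part of this group. Of 28 measured hepatocyte markers 10 moved toward liver and 2 toward WAT, with a median change of -0.87, and 14 were at least 2-fold lower in labelled-knockout than wild-type WAT. Over all genes the gap moved toward liver in 4.62% and toward WAT in 3.51%, and the 5th percentile of the WAT difference was -0.67. With quantile normalization 16 markers moved toward liver and 0 toward WAT. Alb read 3.33 and 1.75 in WAT and 8.32 and 8.05 in liver (change -1.30), Fgg, a fibrinogen chain, 0.39 and -1.24 in WAT (change -1.37), and Ttr, transthyretin, 0.17 and -1.45 in WAT (change -1.33). All 28 were liver-preferring. Of the 29 on the array, all were well above background in wild-type WAT and 28 in labelled-knockout WAT. The median WAT difference over the 28 was -0.95. The summed WAT level of the list was not lower (298 in wild type and 357 in the labelled knockout), but a sum of signals is weighted to the brightest members. Cyp2e1, a P450 enzyme that fat also expresses, went the other way, with WAT at 5.89 and 6.86 (change 1.21). The transporters Abcb11 and Slco1b2, the bile salt export pump and an organic anion carrier, widened by -1.40 and -1.31, and the enzymes Cyp2d10 and Ugt2b36 by -1.51 and -1.30. With normexp at offset 50 Abcb11 and Ugt2b36 were within 2-fold (-0.67 and -0.53). The part of liver-derived RNA in the WAT pools was not tested. When genes with a wild-type gap of 8-fold or more in favour of liver were left out, 33 liver-preferring genes widened in place of 92. With the same genes left out, 131 narrowed, closed or turned in place of 252. The cut makes the group smaller, so these counts cannot show the part of liver-derived RNA.

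The 119 level genes that opened to WAT included the muscle genes Ttn and Pvalb and the thermogenic genes Elovl3 and Acot11. Without the muscle and epithelial lists 112 level genes still opened to WAT. Ttn, the giant sarcomere protein titin, read -4.73 and -5.44 in liver and -4.75 and 0.00 in WAT, a gap that went from 1.01-fold to 43.7-fold (change 5.47, or 3.94 without the filter on dim probes). Pvalb, parvalbumin, the calcium buffer of fast fibres, read -1.08 and -1.49 in liver and -1.99 and 2.32 in WAT (change 4.72). Of 26 muscle markers 10 were measured on all 4 arrays. Of these 8 moved toward WAT and 0 toward liver, against 3.51% and 4.62% of all genes. Their median change was 3.24 (1.82 under the stricter filter). Tcap, another muscle marker, moved toward WAT by 3.67. Des, desmin, and Tnnt1, the slow troponin T, did not pass (0.31 and 0.10). The summed level of all 26 was 9.16 in wild-type WAT and 82.2 in labelled-knockout WAT, and 2.53 and 2.42 in the livers. The WAT array of the labelled knockout thus held more muscle signal, and that array enters every change of the gap named here. Some gains toward WAT came mainly from lower liver levels, such as those of Slc13a4 and Fndc5. The part of muscle RNA in other genes was not tested. Without the muscle and epithelial lists 506 genes moved toward WAT in place of 523, a count that cannot show the part of muscle RNA in genes off the lists.

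Most measured thermogenic fat genes moved in the same direction, toward WAT, against 3.51% of all genes (4.62% moved toward liver). Of 23 measured genes 16 moved toward WAT and 0 toward liver, with a median change of 1.37, a WAT median of 1.47 and a liver median of -0.13. Elovl3, an elongase of brown fat, read -4.43 and -3.94 in liver and -5.18 and -0.12 in WAT (change 4.57). Acot11, a thioesterase induced by cold, was lower in liver (-0.38 and -1.54) and higher in WAT (-0.28 and 2.02), a change of 3.47. Slc27a2, a fatty acid transporter, and Pank1, a pantothenate kinase, are liver-preferring and narrowed by 2.14 and 2.0. Ucp1, the uncoupling protein, was above background in WAT alone, where it read 2.76 and 5.80, so its gap has only a bound and is not among the members. Cidea, a lipid droplet protein of thermogenic fat, was higher in both tissues and kept its gap (change -0.81, which turned to 0.82 and 0.62 with normexp). Several of these genes, Cox7a1, Cox8b, Cpt1b and Fabp3 among them, are expressed in muscle too.

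Lipogenic genes also moved toward WAT more often than toward liver, against 3.51% and 4.62% of all genes. Of 24 measured genes of fatty acid synthesis 10 moved toward WAT and 2 toward liver, with a median change of 0.86 made of a WAT median of 0.52 and a liver median of -0.44. Acacb, the mitochondrial acetyl-CoA carboxylase, read 1.60 and 0.78 in liver and 2.46 and 3.91 in WAT (change 2.26). The lipogenic regulator Srebf1 changed by 1.57, the elongase Elovl6 by 1.68 and the synthase Fasn by 1.28, each with lower liver and higher WAT levels. The 2 exceptions were higher in liver. Elovl7, another elongase, read -3.75 and -0.80 in liver (change -2.06), and the desaturase Scd2 read -0.33 and 1.32 in liver (change -1.87). Orm3, an acute phase orosomucoid, Dct, dopachrome tautomerase, and Cxcl13, a B cell chemokine, opened to WAT by 2.99, 2.80 and 2.94 mainly through lower liver levels, and Pim1 and Pcsk4 by 2.51 and 2.0 through WAT.

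**Figure D4:**
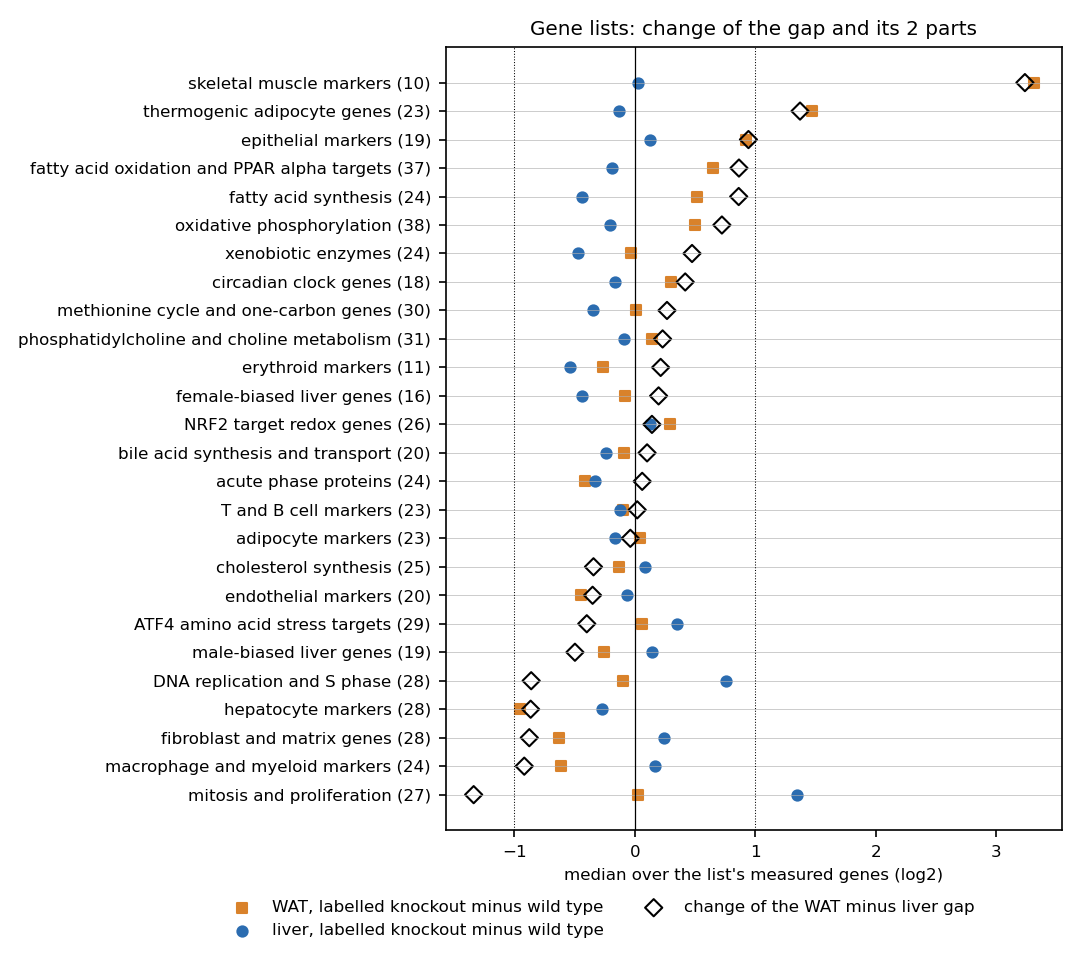
For each of 26 gene lists (measured genes in brackets), the median over its genes of the change of the gap (diamonds) and of its parts, the difference between labelled knockout and wild type in WAT (squares) and in liver (circles), all in log2. Muscle and thermogenic lists take their change from WAT, and the mitosis list, at -1.34, takes it from liver.

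Most measured mitosis genes moved toward liver, though fewer reached a 2-fold gap there. Of all genes, 4.62% moved toward liver and 3.51% toward WAT. Of 27 measured mitosis genes 22 moved toward liver and 0 toward WAT, with a median change of -1.34, a WAT median of 0.03 and a liver median of 1.34. With normexp 11 of them moved toward liver at either offset and the median shrank to -0.77 and -0.84, and Bub1, a spindle checkpoint kinase, went from -1.54 to 0.10 and 0.057. Ube2c, the ubiquitin-conjugating enzyme of the anaphase-promoting complex, read -2.19 and -0.53 in liver and -1.20 and -1.57 in WAT, so that a gap of 0.99 ended at -1.04. Cdc20, the activator of that complex, read -0.48 and 1.35 in liver and -0.83 and -0.61 in WAT (change -1.60). Cenpe, a kinetochore motor, changed by -1.55. Of 28 measured genes of DNA replication 11 moved toward liver and 0 toward WAT, with a median of -0.86. Mcm5 and Mcm2, subunits of the replicative helicase, changed by -1.80 and -1.65, Uhrf1, which maintains DNA methylation, by -1.76, and the transcription factor E2f1 by -1.70.

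Promoters of mitosis genes are known for the cell cycle homology region and for CCAAT boxes, and the promoters of the 2 named members with the largest change among those with a window are shown because these members moved together. The windows run from 250 bases before to 50 after the RefSeq start on GRCm38.p6, with matches to TTTGAA or CCAAT on either strand in capitals. Ube2c lies at chr2:164769679-164769978 on the plus strand and Cdc20 at chr4:118437294-118437593 on the minus strand.

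Ube2c: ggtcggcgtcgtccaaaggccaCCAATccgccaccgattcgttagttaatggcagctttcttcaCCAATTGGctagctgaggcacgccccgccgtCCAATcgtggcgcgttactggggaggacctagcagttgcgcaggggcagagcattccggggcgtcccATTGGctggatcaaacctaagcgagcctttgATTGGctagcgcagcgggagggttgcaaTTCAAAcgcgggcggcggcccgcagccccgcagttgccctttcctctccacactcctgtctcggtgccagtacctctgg
Cdc20: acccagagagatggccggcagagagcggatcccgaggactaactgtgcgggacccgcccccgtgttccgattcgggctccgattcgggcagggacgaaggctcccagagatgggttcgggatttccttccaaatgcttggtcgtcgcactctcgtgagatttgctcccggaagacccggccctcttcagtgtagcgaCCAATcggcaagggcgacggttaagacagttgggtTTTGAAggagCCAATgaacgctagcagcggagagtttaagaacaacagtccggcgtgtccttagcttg

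TTTGAA was in 18 of 24 measured mitosis genes with a window (75%), against 17.9% of all 32851 windows and 15.1% of 11675 measured genes with one. CCAAT was in 20 of 24 (83.3%), against 37.4% of windows and 42.2% of measured genes. TTTGAA was in 14 of the 20 that moved and in 4 of the 4 that did not. Whether the motif goes with the size of the change was not tested, as only 4 genes had not moved. A match is a description of the letters and says nothing about binding. A gene with several windows was counted once, and matches of CCAAT on opposite strands can overlap, as they do in Ube2c.

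Targets of ATF4, the transcription factor of amino acid stress, moved toward liver only in part. All genes did so in 4.62% of cases, and moved toward WAT in 3.51%. Of 29 measured targets 9 moved toward liver and 1 toward WAT, with a median change of -0.40, a WAT median of 0.06 and a liver median of 0.35. Beside Phgdh, Fgf21 and Atf3, the mitochondrial folate enzyme Mthfd2 changed by -2.37, but by -0.28 and -0.42 with normexp. Asns, asparagine synthetase, Nupr1, a stress-induced nuclear protein, and Psat1, the second enzyme of serine synthesis, changed by -2.35, -2.08 and -1.63. Ddit3 and Trib3, both stress genes, were within the limit at -0.73 and -0.55, Chac1 read 0.57, and Cebpb moved toward WAT by 1.23. The promoters of Fgf21 (chr7:45615441-45615740) and Atf3 (chr1:191183284-191183583), both on the minus strand of GRCm38.p6, are shown. Matches to TGATGNAA, the core of the amino acid response element, on either strand are in capitals. Among targets with a match, these 2 had the largest change. Phgdh, with a larger change (-3.43), had a window without a match, as did Mthfd2.

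Fgf21: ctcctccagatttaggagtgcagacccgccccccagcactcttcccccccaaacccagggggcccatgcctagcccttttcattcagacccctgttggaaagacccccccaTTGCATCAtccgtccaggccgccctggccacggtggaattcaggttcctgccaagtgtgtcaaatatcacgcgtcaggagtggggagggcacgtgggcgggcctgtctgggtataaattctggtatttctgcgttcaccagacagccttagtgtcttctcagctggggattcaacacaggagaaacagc
Atf3: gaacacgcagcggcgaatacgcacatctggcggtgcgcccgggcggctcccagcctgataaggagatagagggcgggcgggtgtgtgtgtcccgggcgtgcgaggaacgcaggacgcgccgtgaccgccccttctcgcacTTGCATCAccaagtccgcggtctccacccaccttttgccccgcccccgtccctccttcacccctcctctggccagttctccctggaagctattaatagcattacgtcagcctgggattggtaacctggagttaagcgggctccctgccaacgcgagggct

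TGATGNAA was in 7 of 24 measured ATF4 targets with a window (29.2%), against 3.97% of all windows and 2.99% of measured genes with one. It was in 4 of 9 targets that moved toward liver and in 3 of 15 others. The antioxidant response element TGACNNNGC was in 9 of 22 NRF2 targets (40.9%), against 12.4% of windows and 16.4% of measured genes. Of the 26 measured NRF2 targets, 2 moved toward WAT (7.69%) and 3 toward liver (11.5%), with a median change of 0.14. The shares over all genes were 3.51% and 4.62%. Beside Cbr3 and Me1, Srxn1, which reduces oxidised peroxiredoxin, opened to liver by -1.25 and G6pdx, the entry enzyme of the pentose phosphate pathway, widened by 1.23 (0.93 with quantile normalization).

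Other level genes opened to liver from both tissues or from 1. Saa3, an inflammatory serum amyloid, read -0.34 and 1.43 in liver and -1.07 and -3.21 in WAT, so both tissues passed 2-fold in opposite directions and the gap went from 1.66-fold to 24.9-fold (change -3.91). Slpi, a leukocyte protease inhibitor, showed the same crossing, with liver at 0.26 and 2.47 and WAT at 1.24 and -0.02 (change -3.47). Cgref1, a growth regulator, and Tnfrsf12a, the TWEAK receptor, changed by -3.56 and -2.53 from liver. Lyve1, a hyaluronan receptor of lymphatic and sinusoidal endothelium, changed by -1.94 with WAT at 0.02 and -1.30. D430019H16Rik, Fignl1 and Tubb2a changed by -2.62, -2.05 and -2.05.

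**Figure D5:**
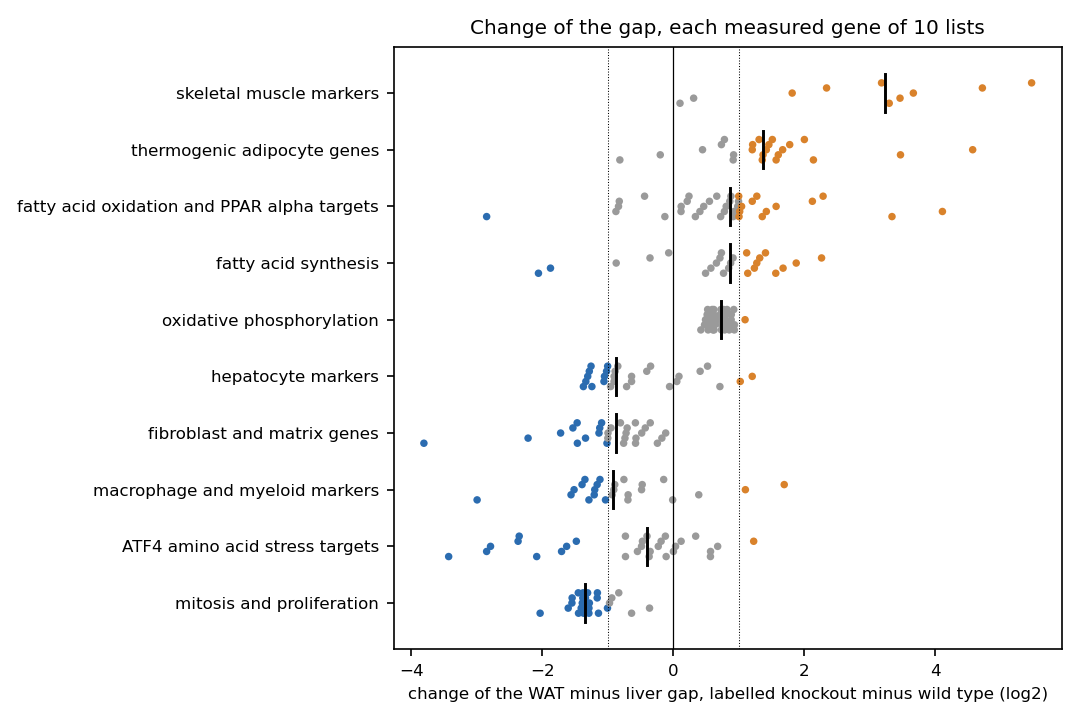
Each point is 1 measured gene of the list named on the left, placed by its change of the WAT minus liver gap in log2, and the bar is the list's median. Orange points moved at least 2-fold toward WAT and blue points toward liver, and grey points did not. Mitosis genes lie left of 0 (22 of 27 with normexp), while all 38 genes of oxidative phosphorylation lie right of it (37 with quantile normalization).

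In the pathways nearest to PNPLA7 few genes moved, at shares near those of all genes (3.51% toward WAT and 4.62% toward liver). Of 31 measured genes of phosphatidylcholine and choline metabolism 0 moved toward WAT and 1 toward liver, with a median change of 0.23, against 0.05 over all genes. The lone gene was Gdpd1, a lysophospholipase D, at -1.27 (-0.54 with normexp at offset 50). The glycerophosphocholine diesterase Gpcpd1 came just under the limit on the other side at 0.99. Of 30 measured genes of the methionine cycle and one-carbon metabolism 2 moved toward WAT (6.67%) and 0 toward liver. They were the serine hydroxymethyltransferase Shmt1 (1.37) and Ahcyl1 (1.12), and the list had a median of 0.27. Pemt, which methylates phosphatidylethanolamine, and Gnmt, the main consumer of methyl groups in liver, read 0.46 and 0.51, within 2-fold.

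The remaining lists had members in both directions or few that moved. Beside them stand the shares over all genes, 3.51% toward WAT and 4.62% toward liver. Of 24 measured acute phase genes 4 moved toward WAT and 9 toward liver, and the median of 0.06 turned to -0.03 with quantile normalization, -0.01 with the percentile over measured probes and -0.08 without the filter on dim probes. Serpina3n, an acute phase serpin, widened toward liver by -1.42. Of 24 xenobiotic enzymes 6 moved toward WAT and 5 toward liver, or 5 and 1 with normexp at offset 50 (median 0.47, and -0.11 without the filter), and Fmo1, a flavin monooxygenase, closed by 2.19. Of 20 genes of bile acid synthesis and transport 2 moved toward WAT and 4 toward liver, or 2 and 1 with normexp at offset 50 (median 0.10, and -0.05 with quantile normalization), with Acox2 and Hsd3b7, enzymes of side chain and ring modification, at 1.24 and 1.17 (0.83 with quantile normalization for Hsd3b7). Of 18 clock genes 4 moved toward WAT, among them Hlf (1.52) and Bhlhe40 (1.16), and 1, Arntl, toward liver (-1.08, and -0.37 with normexp at offset 50). Of 25 cholesterol synthesis genes 1 moved, Acat2 toward WAT by 1.67, while the median was -0.34.

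Some epithelial markers beside Wfdc2 and Cldn3 moved toward WAT. For the lists in this paragraph, the shares of all genes whose gap moved were 3.51% toward WAT and 4.62% toward liver. The 95th percentile of the WAT difference over all genes was 0.61. Of 19 measured, 9 moved toward WAT and 2 toward liver, with a median of 0.94, 9 were at least 2-fold higher in labelled-knockout than wild-type WAT, and the summed WAT level of the 29 on the array was 3.68 in wild type and 12.1 in the labelled knockout. Spint1, a protease inhibitor, and Krt18, a keratin, moved by 2.09 and 1.70 with WAT differences of 2.22 and 2.17. Ltf, lactoferrin, closed by 2.44 and Prom1 narrowed by 1.53, both from liver. Of 16 measured genes biased to female liver 3 moved toward WAT and 1 toward liver (median 0.20). The filter left out 15 further members, which were not well above background on all 4 arrays, and without it 11 of 31 moved toward WAT and 3 toward liver. Among those left out Cyp2b13, A1bg and Hao2 differed in liver by -4.12, -3.78 and -2.86, labelled knockout minus wild type, and the summed liver level of 30 list members was 490.2 in wild type and 204 in the labelled knockout. Of 19 genes biased to male liver 2 moved toward WAT and 6 toward liver (median -0.50), or 2 and 1 with normexp at offset 50. Sult5a1 moved by 1.53, and Cyp4a12b and C6 by -1.41 each, which shrank to -0.55 and -0.88 with normexp at offset 50. Of 23 T and B cell markers 1 moved each way, with Jchain, the immunoglobulin joining chain, at -1.84 (-0.91 with normexp at offset 50), and the median of 0.02 took the other sign with the percentile over measured probes (-0.05), without the filter on dim probes (-0.09) and under the stricter filter (-0.05), while 7 moved toward WAT with normexp at offset 0. Of 20 endothelial markers 2 moved toward liver and of 11 erythroid markers 0 moved, with medians of -0.35 and 0.21.

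A change in both tissues can leave the gap as it was. In 15 genes both tissues differed at least 2-fold in the same direction, 10 upward and 5 downward, and in 6 of the 15 the gap changed by less than 2-fold. Tuba8, an alpha tubulin, read -0.54 and 1.17 in liver and -0.90 and 1.58 in WAT (change of the gap 0.78). Hamp2, a hepcidin, read 7.34 and 5.44 in liver and -1.08 and -2.57 in WAT (0.41), and Wfdc21 read 5.11 and 3.63 in liver and 3.59 and 1.99 in WAT (-0.11, and -0.52 with quantile normalization). Sprr1a, a cornified envelope protein, was higher in both and more so in liver (-1.70). Dusp4, a MAP kinase phosphatase, was higher in both and left its gap at 4.81 in both genotypes. S100g, a calcium-binding protein, and Cox6a2, a heart and muscle cytochrome oxidase subunit, were higher in both and more so in WAT (1.57 and 2.48). Bex1 changed by -1.39 and Cyp2c68, Cyp2c50 and Cyp3a16 by -1.46, -1.14 and -1.08, values that came within 2-fold with normexp at offset 50 (-0.62, -0.70, -0.34 and -0.04). The Cyp genes have near-identical relatives, so the member is uncertain.

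The rule leaves out genes that 1 tissue does not show. Of 7439 genes outside it, 769 were well above background on both WAT arrays and neither liver array, and labelled-knockout WAT was 2-fold or more above wild type for 52 of them and below it for 59. Lep, which encodes leptin, read 1.57 and -0.42 in WAT, while Adipoq, adiponectin, read 6.98 and 7.02. Another 328 genes were seen on both liver arrays alone, with labelled-knockout liver 2-fold or more above wild type for 12 and below it for 30. Of the muscle markers outside the rule, 13 had a WAT ratio and 11 of these were at least 2-fold higher in the labelled knockout, such as the fast myosin Myh4, which read -0.35 and 4.38. A gene not well above background in a tissue has only a bound there, so its gap gets no change.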

How the data were processed

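The 4 one-colour Agilent arrays held 44397 spots each, of which 43020 were not controls. The authors' deposited scanner files give an intensity for each spot, read with Agilent Feature Extraction 11.0.1.1 per the submitters' processing notes, and the processed signal used here is an intensity after that software's background correction, with no scaling between arrays. The authors' deposited value table, of whole-series intensity over 1 constant an array (1470.45 and 1764.46 for liver and 1690.01 and 1613.11 for WAT, wild type before labelled knockout), had column medians of 0.0737, 0.0751, 0.0876 and 0.0875 and served as an alternative. Its scale and direction were thus settled, and its genes were not centred. The probe annotation is on mm9.

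Levels were log2 of processed signal over the array's 75th percentile across spots other than controls (Python 3.11.15, numpy 2.4.6, pandas 2.3.3). Outlier spots (79 to 110 an array) were left out, the spots of a probe were averaged, and a probe counted as measured if over 0.5 of its spots were marked well above background on all 4 arrays (23855 probes, 20195 with a gene). A gene is the mean of its measured probes. Names came from a RefSeq table of GRCm38.p6, by accession for 27234 probes, by symbol for 3576 and by synonym for 565, and 8054 were unnamed. No test was made with 1 array a group. The 75th percentile was between 21.8 and 26.4 times the mean raw brightness of negative controls.

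Members, the 26 gene lists and the naming rule were chosen with earlier results of these data known. Named genes were Pnpla7, Pnpla6 and Pnpla8, turned genes (up to 8 a preference), up to 8 genes for each preference and direction with the largest change, a mean level above the 25th percentile and probes of 1 sign, up to 4 moved members of each list, and up to 6 genes a direction that differed 2-fold the same way in both tissues. A few genes meeting the rule are left out here. Further list members, Osbpl3, Fbln7, Dusp4, genes of 1 tissue and the genes just at the limit were picked with their values in view. The calculation of the gap, its change and its pattern was tested on simulated gene levels. The steps from spots to genes, the background corrections, the lists and the motifs were not simulated. Alternatives were normexp (limma 3.58.1, R 4.3.3) at offsets 50 and 0, quantile normalization, the percentile over measured probes, the authors' table, the filter on dim probes left out or made stricter, the brightest probe, a 4-fold preference and leaving out muscle and epithelial lists. Sorting by the mean gap and leaving out genes 8-fold higher in wild-type liver were chosen after seeing the data.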

Additional observations from a re-analysis of the deposited data

Results flagged for a closer look

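In 17 genes liver and WAT both differed at least 2-fold between the genotypes and in opposite directions, 8 with WAT higher in the labelled knockout and 9 with WAT lower. The difference between the tissues was not tested, with 1 array a group. Toward liver the gap of Esm1 changed by -4.96, Saa3 by -3.91, Timp1 by -3.80, Slpi by -3.47 and the aggrecanase Adamts4 by -2.95. Akr1c18 changed by -2.78, the dendritic cell lectin Cd209a by -2.38, the monocyte chemokine Ccl2 by -2.18 and Slamf9 by -2.08. Toward WAT the gap of Zmynd12 changed by 2.66, the G protein regulator Rgs16 by 2.80, Cxcl13 by 2.94 and Coq8a, a kinase-like protein of coenzyme Q synthesis, by 3.19. Acot11 changed by 3.47, Cyp2b10 by 3.79, Acpp by 4.54 (1.93 without the filter on dim probes) and Wfdc2 by 7.91.

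Outside the genes with a gap, 142 were well above background on the labelled-knockout WAT array alone and 185 on the labelled-knockout liver array alone. The wild-type arrays had 502 such genes in WAT and 82 in liver.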

How the results depend on the processing

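The counts of genes depended most on the background correction and on the filter on dim probes. With normexp at offset 50, 919 genes moved toward WAT and 270 toward liver in place of 523 and 688, 128 WAT-preferring genes narrowed, closed or turned in place of 354, 5 of them turned in place of 10, 4 liver-preferring genes turned in place of 7, 43 widened in place of 92 and 58 level genes opened to liver in place of 130. At offset 0 these numbers were 1810, 320, 138, 5, 22, 71 and 63, while 126 WAT-preferring genes widened in place of 70, 756 liver-preferring genes narrowed, closed or turned in place of 252 and 315 level genes opened to WAT in place of 119. Without the filter on dim probes, which adds genes tested, 1324 moved toward WAT and 1561 toward liver. WAT-preferring genes then gave 818 narrowed, closed or turned, 36 turned and 172 widened, liver-preferring genes 516, 37 and 166, and level genes 398 opened to WAT and 311 to liver. Under the stricter filter, which removes genes, the counts were 293 toward WAT and 409 toward liver, 204 WAT-preferring genes narrowed, closed or turned and 26 widened, 153 liver-preferring genes narrowed, closed or turned, 1 turned and 55 widened, and 55 level genes opened to WAT and 78 to liver. With preference at 4-fold, which leaves fewer genes in each group, 207 WAT-preferring genes narrowed, closed or turned, 1 turned and 37 widened, and 4 liver-preferring genes turned. Of the alternatives chosen after seeing the data, sorting by the mean gap gave 121 WAT-preferring genes that widened, and leaving out genes 8-fold higher in wild-type liver left 131 liver-preferring genes that narrowed, closed or turned and 33 that widened. The other counts came within 1.5 times under quantile normalization, the percentile over measured probes, the authors' table, the brightest probe and without muscle and epithelial lists.

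Of 118 named genes past 2-fold, 99 stayed past it under every alternative that gave a value, and 1 reversed. Not all alternatives could change a value. The stricter filter and leaving out lists only remove genes, and the brightest probe alters only genes with several probes. The authors' table is the processed signal over 1 constant an array, so its values were nearly fixed in advance. Bub1 went from -1.54 to 0.10 and 0.057 with normexp at offsets 50 and 0, and the cause was not tested. No paired analysis was possible because each group had 1 array, and for the same reason no array could be left out. Genes dim on any array had the larger model errors, and precision rests on signal over background and on the number of arrays.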
